A study of Mus musculus with 6 samples.

Results

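The genes described here code for proteins of the node of Ranvier and of the domains that flank it, measured in optic nerves of mice after crush or sham surgery. There were 10 of them among the 25755 genes of the table, namely Hapln2, Gldn, Nfasc, Ank3, Scn8a, Cntn1, Cntnap1, Cntn2, Kcna1 and Kcna2. They were selected by name with the measured differences between sham and crush of these same libraries already known, the large fall of Hapln2 among them, so their differences are given as a description and carry no test. RNA came from whole optic nerves of transcardially perfused mice, all of the genotype NF1flox/flox;hGFAP-Cre and all labelled 3 months. There were 6 libraries, each labelled as 1 mouse. Mice 1, 2 and 3 had sham surgery and mice 4, 5 and 6 had optic nerve crush (ON-CR). The study made this comparison to look for the route by which ON-CR raises Ccl5 production by tumor-associated microglia. The hGFAP-Cre transgene, driven by the human GFAP promoter, removes Nf1 from neuroglial progenitors and their progeny. The sham mice therefore carry the same loss as the ON-CR mice, and no mouse with intact Nf1 was part of the comparison. By the paper's account, surgery took place several weeks before the nerves were collected. For this genotype and age it reports optic gliomas after ON-CR, with greater nerve volume, cellularity and proliferation than after sham surgery. The comparison is thus a late one, and whether a difference came from the injury itself or from the tumor was not tested.

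Along a myelinated axon, sodium channels gather in the short gaps between myelin segments, the nodes, where the action potential is renewed. The axon's cell adhesion molecules and ankyrin hold the channels in place, an extracellular matrix of hyaluronan, lecticans and link proteins fills the gap, and on each side the loops of the glial cell attach to the axon at the paranode, which keeps the potassium channels of the neighbouring juxtaparanode away from the node. In the optic nerve the axons belong to retinal ganglion cells, whose cell bodies lie in the retina, and the myelin is made by oligodendrocytes, whereas Schwann cells form the nodes of peripheral nerves.

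The libraries held 17414035 to 23621086 estimated reads on genes, with the deepest ON-CR library below the shallowest sham library. Values are the authors' normalized values, in which 1 read is worth 0.885 to 1.06, and 3 reads correspond to 2.66 to 3.18. The floxed gene, Nf1, had values of 364, 447 and 343 in the sham group and 416, 438 and 380.0 in the ON-CR group, with no library of intact Nf1 to set beside them. The groups also differed in a sex-linked transcript. Xist stood at 16.7, 2.14 and 30.9 in sham mice and at 2708, 6357 and 6131 in ON-CR mice, whereas Ddx3y, from the Y chromosome, stood at 1645, 1291 and 1544 and at 976, 4.19 and 0, so that ON-CR mouse 4 had both transcripts and sex and surgery cannot be told apart. For RNA extraction and qPCR of optic nerves, the paper's methods give more than 1 mouse per sample, whereas each library here is labelled as 1 mouse. Whether the library of ON-CR mouse 4 held RNA of more than 1 mouse was not tested. ON-CR mouse 5 stood apart in neuronal transcripts, with a summed value of 10 brain neuron markers of 8423 against 1019 to 3448 in the other libraries, and Scn8a, Kcnab2 and the medians of the node, link protein, juxtaparanode, contactin and neuronal lists, which moved with this library, are given with and without it. Markers of the glia of the optic nerve were abundant in all libraries, with a summed value of 8 astrocyte markers of 220707 to 316434, and mature oligodendrocyte markers were lower after ON-CR. All 12 of them had a log2 fold change below 0, 8 fell at an adjusted p at or under 0.05 by limma, 11 had groups that did not overlap, and their summed value was 1457110 to 2032180 in sham and 743611 to 921217 in ON-CR mice. In bulk tissue, fewer cells of a type, a smaller share of the tissue's RNA from them and less RNA per cell cannot be told apart. By staining at this age and genotype, the paper reports more cells and a higher percentage of Olig2-positive cells in ON-CR than in sham nerves.

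Hapln2 had the largest fall of the 10 genes, Gldn had the largest rise, Cntn2 was lower by a smaller amount, and 6 genes, among them the adhesion molecules Cntn1 and Nfasc, had a log2 fold change within 0.2 of 0. Among the 10, 3 had an adjusted p at or under 0.05 in the fit over all genes, beside 2.10% of all genes tested, with 2 lower (1.13% of all genes) and 1 higher (0.971%). The count of 3 became 2, without Cntn2, with library totals or without any 1 of the sham mice, and 1, with Hapln2 alone, without ON-CR mouse 6. For 4 of the 10 the groups were fully separate, beside 21.6% of all genes. Because the list was made with this contrast in view, nothing is read from these shares.

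**Figure D1:**
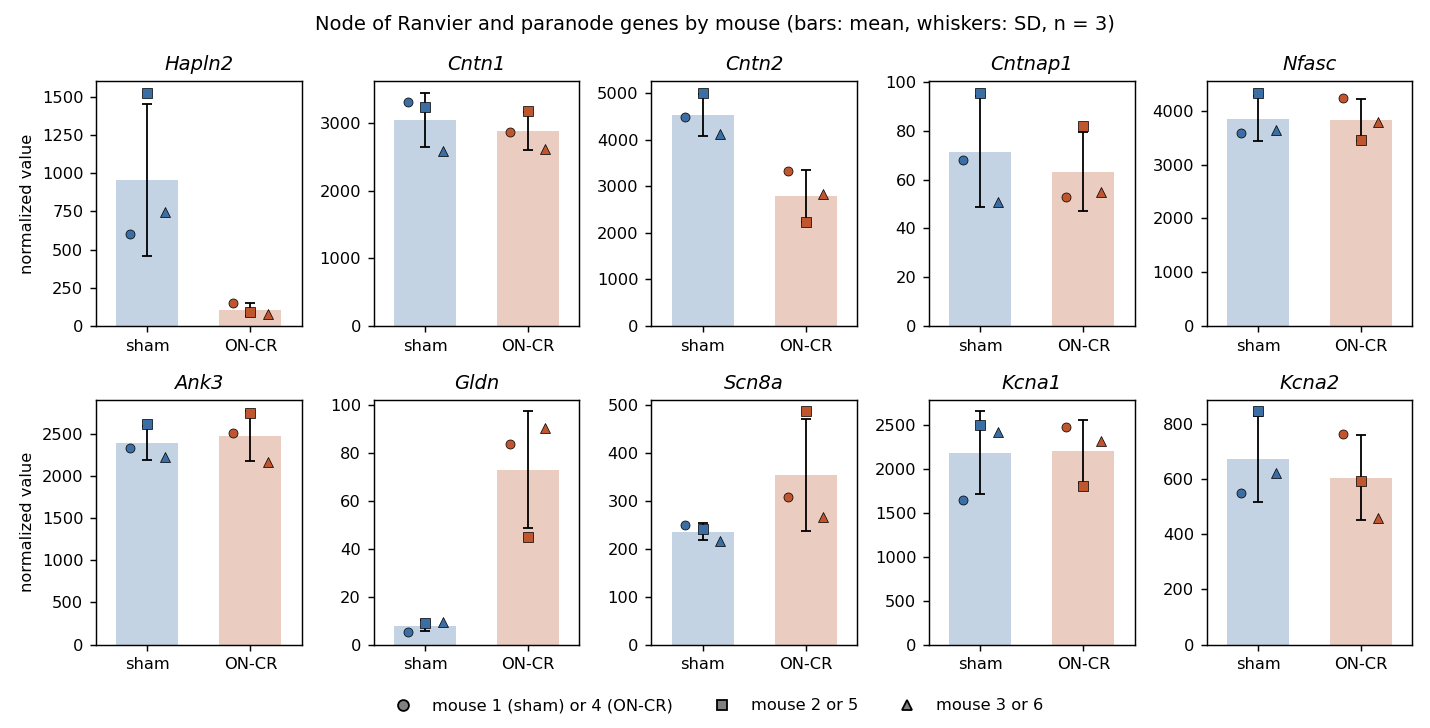
Normalized value of each of the 10 genes by mouse, on a linear axis from 0 for each gene, in 3 sham mice (blue) and 3 ON-CR mice (orange), with bars for the mean and whiskers for the SD. The ON-CR mice lie below all sham mice for Hapln2 and Cntn2 and above all sham mice for Gldn and Scn8a, and the groups overlap for the other 6 genes.

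Promoter sequence is shown for the 3 genes with the largest differences, since these are the ones a reader would want to examine for control elements. RefSeq windows of 250 bases before to 50 bases after a transcript start, on GRCm38.p6, were found for 7 of the 10 genes, with 11 windows in all, and none was matched for Cntnap1, Ank3 and Kcna1. The 250 bases before the start are printed 5′ to 3′ on the strand of the gene, and capitals mark matches, on either strand, to 7 motifs. The core motif of SOX factors was searched as ACAAAG, the E-box of myelin-related bHLH factors as CAGCTG, the box that gives many promoters their fixed start as TATAAA, the box bound by nuclear factor Y as CCAAT, the GC box of Sp factors as GGGCGG, the site of AP-1 factors as TGANTCA, and the site of STAT factors as TTCNNNGAA.
Hapln2, chr3:88027512-88027761, minus strand: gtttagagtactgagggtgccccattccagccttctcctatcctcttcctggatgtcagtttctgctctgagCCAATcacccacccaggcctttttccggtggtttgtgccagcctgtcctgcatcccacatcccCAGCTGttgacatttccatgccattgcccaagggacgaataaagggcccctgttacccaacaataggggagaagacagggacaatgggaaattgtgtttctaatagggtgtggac
Gldn, chr9:54286236-54286485, plus strand: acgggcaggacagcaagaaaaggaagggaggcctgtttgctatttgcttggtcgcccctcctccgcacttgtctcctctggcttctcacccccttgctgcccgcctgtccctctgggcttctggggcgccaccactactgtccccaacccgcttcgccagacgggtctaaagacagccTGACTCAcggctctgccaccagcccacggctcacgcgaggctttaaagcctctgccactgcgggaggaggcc
Cntn2, chr1:132542941-132543190, minus strand: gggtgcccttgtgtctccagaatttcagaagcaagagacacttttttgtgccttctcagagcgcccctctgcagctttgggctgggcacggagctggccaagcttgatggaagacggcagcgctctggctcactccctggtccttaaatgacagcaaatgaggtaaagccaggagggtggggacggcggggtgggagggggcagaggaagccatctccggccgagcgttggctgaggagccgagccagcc
The Hapln2 window held a CCAAT box beginning 178 bases before the start and an E-box beginning 115 bases before it. In the Gldn window, TGACTCA, a match to the AP-1 motif, began 72 bases before the start, and a GC box on the other strand began at base 16 of the transcript, beyond the stretch printed. The Cntn2 window held no match to the 7 motifs. RefSeq starts differ from the GENCODE gene ends given below. The printed Cntn2 stretch therefore lies within the GENCODE gene, as does the part of the Hapln2 stretch nearest its start. No lack of motifs before the GENCODE start of Cntn2 can be read from this window. Among all 32851 RefSeq windows of the same length, the CCAAT box was found in 37.4%, the E-box in 16.3%, the AP-1 site in 7.81%, the GC box in 35.7%, the SOX core in 18.7%, the TATA box in 13.6% and the STAT site in 8.30%. Of the 11 windows of these genes, 4 held the CCAAT box, 3 the E-box, 3 the GC box, 1 each the SOX core, the TATA box and the AP-1 site, and 0 the STAT site. The share of G and C was 52% for Hapln2, 65% for Gldn and 61.3% for Cntn2, beside a median of 52.7% for all windows. A match describes letters in a window and not a bound site.

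Hapln2 codes for a link protein that joins hyaluronan to lecticans in the matrix of central nodes. The gene (ENSMUSG00000004894.10) lies on the minus strand at chr3:88021750-88027583 (GRCm38, as are all gene positions here). Its normalized value was 601, 1526 and 743 in the sham group (mice 1, 2 and 3 in that order, as throughout) but 154, 91.2 and 78.9 in the ON-CR group (mice 4, 5 and 6). The lowest sham mouse was well above the highest ON-CR mouse, although the sham mice themselves spread 2.54-fold. The group means were 957 ± 499 and 108 ± 40.0 (SD, n = 3), so the ON-CR mean was 11.3% of the sham mean, and the log2 fold change was -3.08 (SE 0.34), or 8.44-fold lower, on the log2(value + 1) scale. These values rest on 566 to 1724 estimated reads in sham and 76 to 154 in ON-CR mice. Sham mouse 2 was the high one, and without it the log2 fold change was -2.68. Under 14 other settings the log2 fold change ranged from -3.36 to -2.68.

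The matrix partners of Hapln2 had smaller differences. Of 7 other link proteins and lecticans, 0 rose and 0 fell by limma (0 and 2 at an unadjusted p under 0.05), and their median log2 fold change was 0.23, beside 0.03 for all genes tested. Without ON-CR mouse 5 these medians were -0.34 and 0.01. Brevican (Bcan), a lectican that binds hyaluronan and that is the gene next to Hapln2 at 21520 bases on the same strand, stood at 6883, 8536 and 6105 in sham and at 5388, 4582 and 2908 in ON-CR mice. Its groups did not overlap, but its log2 fold change of -0.77 (SE 0.21) missed the threshold, with an adjusted p by limma of 0.102. The other link proteins were low in this tissue. Hapln1 lay between 52.6 and 101.7, Hapln3 between 28.9 and 61.5, and Hapln4 between 8.31 and 14.1 except for 61.9 in ON-CR mouse 5. Ncan, which codes for neurocan, was high in both groups, at 13876 to 20678 in sham and 12778 to 14089.7 in ON-CR mice, with overlap.

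Gldn codes for gliomedin, which Schwann cells secrete at peripheral nodes, where it binds neurofascin and NrCAM and gathers sodium channels. The gene (ENSMUSG00000046167.5) lies on the plus strand at chr9:54286486-54341786. Its value was 5.31, 8.85 and 9.39 in sham mice, from 5 to 10 estimated reads, and 83.8, 45.1 and 90.3 in ON-CR mice, from 43 to 87 estimated reads. Every ON-CR mouse was above every sham mouse, with ON-CR mouse 5 the lowest of its group. The means were 7.85 ± 2.22 and 73.1 ± 24.5 (SD, n = 3), a ratio of 9.31, and the log2 fold change was 3.04 (SE 0.42) on the log2(value + 1) scale. Under 14 other settings it ranged from 2.81 to 3.35.

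Markers of Schwann cells are given beside Gldn because these cells are its known source. Among 9 such markers, 1 rose, 0 fell and 8 did not pass the test (1 higher and 2 lower at an unadjusted p under 0.05), and the median log2 fold change was -0.06, or 0.11 without ON-CR mouse 5. Their summed value was 8458 to 10428 in sham and 6374 to 9276 in ON-CR mice, most of it from Pmp22, which other cells of the tissue express too. Egr2, a transcription factor of myelinating Schwann cells that is also induced in other cell types, was the one that rose, from 20.2, 14.2 and 24.4 to 88.7, 52.4 and 116, with a log2 fold change of 2.04 (SE 0.38) and an adjusted p by limma of 0.025. Prx, which codes for the Schwann cell protein periaxin, lay at 5.31, 10.6 and 12.2 in sham and 14.96, 14.7 and 12.5 in ON-CR mice. Pmp2, a fatty acid binding protein of peripheral myelin, was lower in every ON-CR mouse, at 20.2, 31.0 and 9.39 in sham and 0.992, 5.21 and 9.30 in ON-CR mice (adjusted p by limma 0.218). So was Sox10, a transcription factor that Schwann cells share with oligodendrocytes, at 1139, 1614 and 1087 and 966, 729.6 and 993 (adjusted p by limma 0.201). Of 6 genes of the microvilli and nodal contacts of Schwann cells (Ezr, Rdx, Msn, Slc9a3r1, Nrcam and Sdc3), 0 rose and 0 fell by limma (3 and 1 at an unadjusted p under 0.05), and the median log2 fold change was 0.17. Whether Schwann cells had a part in the Gldn values was not tested beyond these levels.

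The nodal adhesion molecule and the ankyrin of the node showed little difference. Nfasc codes for neurofascin, one form of which sits on the axon at the node and another on the glial side of the paranode, and values per gene do not separate them. The gene (ENSMUSG00000026442.14) lies on the minus strand at chr1:132564690-132741797. Its value was 3586, 4338 and 3640.1 in sham and 4241, 3459.5 and 3799 in ON-CR mice, with means of 3855 ± 419.7 and 3833 ± 392 (SD, n = 3). The groups overlapped, and the log2 fold change of -0.01 (SE 0.12) had a 95% interval of -0.28 to 0.26. Ank3 codes for ankyrin-G, which ties sodium channels and neurofascin to the spectrin beneath the membrane. The gene (ENSMUSG00000069601.14) spans chr10:69398773-70027438 on the plus strand. It stood at 2329, 2622 and 2227 in sham and 2516, 2749.8 and 2165 in ON-CR mice, again with overlap. Its log2 fold change was 0.05 (SE 0.12), with a 95% interval of -0.23 to 0.32.

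Scn8a codes for the sodium channel of mature nodes. The gene (ENSMUSG00000023033.14) lies on the plus strand at chr15:100869858-101045938. Its value was 249.4, 241 and 216 in sham and 307, 486 and 267 in ON-CR mice. The groups did not overlap, with the highest sham mouse only slightly below the lowest ON-CR mouse, and ON-CR mouse 5 was far above the rest. The means were 235 ± 17.3 and 353 ± 117 (SD, n = 3), and the log2 fold change was 0.54 (SE 0.22), which became 0.28 without ON-CR mouse 5. Other neuronal channel genes had the same library on top. Scn1a stood at 447 there and at 90.0 to 122 in the other libraries, and Scn2a at 1162 against 250 to 404. Cntnap2, which codes for the juxtaparanodal adhesion protein Caspr2, stood at 574 there against 165 to 273. The 9 markers of retinal ganglion cells and axons summed to 8615 in ON-CR mouse 5 and to 2266 to 4336 in the other libraries. Of these 9, 0 rose and 0 fell by limma (2 and 0 at an unadjusted p under 0.05), with a median log2 fold change of 0.55, or 0.20 without ON-CR mouse 5. By staining of the retina, the paper reports fewer retinal ganglion cells after ON-CR in this genotype. The bodies of these cells are not in the nerve, so transcript levels here do not count axons. Of the 10 brain neuron markers, 0 rose and 0 fell by limma (0 and 0 at an unadjusted p under 0.05), with a median of 0.68 that turned to -0.41 without that mouse. The part of neuronal RNA in the Scn8a values was not tested beyond these levels and the value without ON-CR mouse 5.

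Among 17 other node genes, 1 rose, 0 fell and 16 did not pass the test, with a median log2 fold change of 0.45, or 0.09 without ON-CR mouse 5. At an unadjusted p under 0.05, 3 were higher and 1 was lower. The one that rose was Scn2b, which codes for a beta subunit of sodium channels. It stood at 144, 101.8 and 115 in sham and at 323, 368 and 357 in ON-CR mice, so that every ON-CR mouse was far above every sham mouse. The log2 fold change was 1.54 (SE 0.18), with an adjusted p by limma of 0.00308, and the adjusted p ranged from 0.001 to 0.0485 over 14 other settings. Unlike the pore-forming subunits, Scn2b was not set apart by ON-CR mouse 5, whose value was close to that of ON-CR mouse 6. Scn4b, another beta subunit, stood at 495, 514 and 764 in sham and 352, 321 and 411 in ON-CR mice. Its groups did not overlap, and its adjusted p of 0.0999 by limma missed the threshold. Nrcam, a partner of neurofascin and gliomedin at nodes, was at 1937, 1718 and 1514 and 2164, 2438 and 2419.7, without overlap, and its adjusted p by limma was 0.101.

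**Figure D2:**
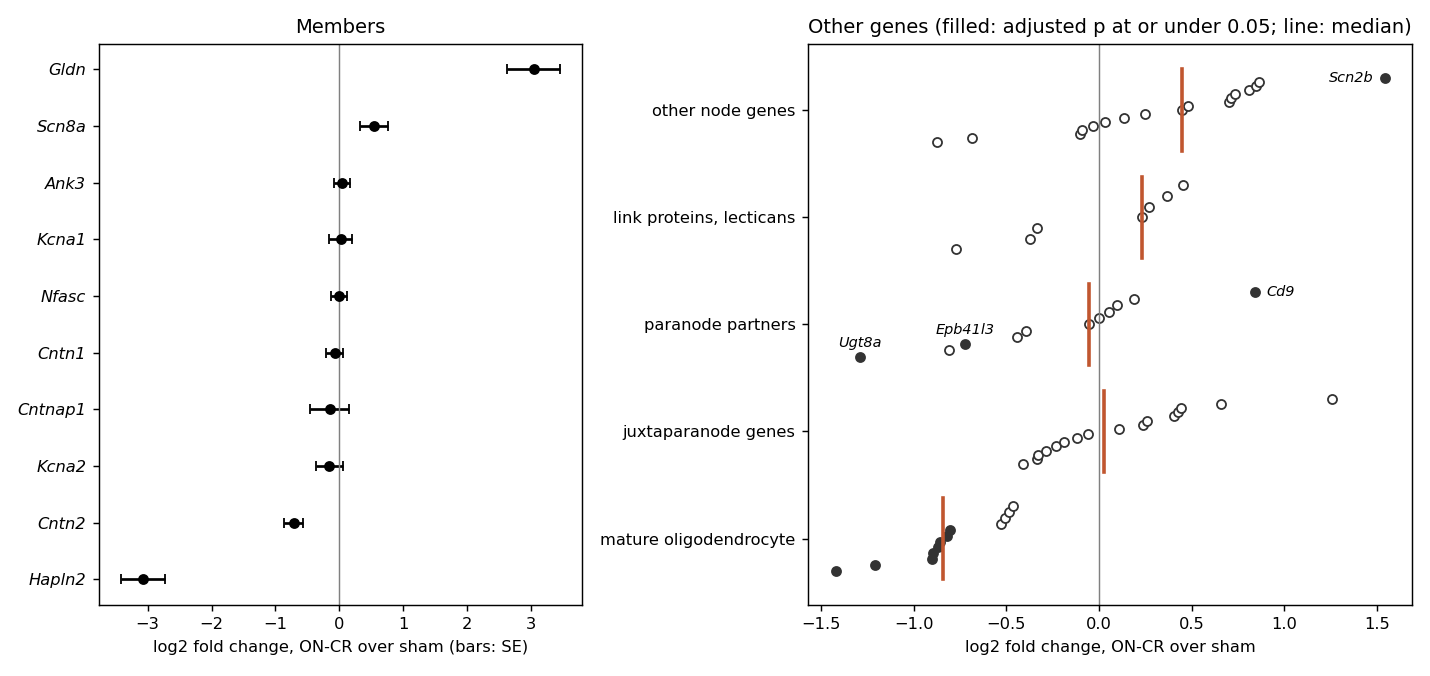
Log2 fold change of ON-CR over sham on the log2(value + 1) scale, at left for the 10 genes with bars for the SE, and at right for 63 other genes in 5 lists, each circle a gene, filled where the adjusted p by limma was at or under 0.05, with an orange line at the median of the list. Hapln2 at -3.08 and Gldn at 3.04 lie outside the range of the other lists, which runs from -1.42 to 1.54, and the mature oligodendrocyte genes all lie below 0.

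At the paranode, the genes of the axonal pair of adhesion molecules did not stand apart between the groups in RNA of the nerve. Cntn1 codes for contactin, which with the product of Cntnap1, Caspr, forms the axonal receptor for glial neurofascin. Cntn1 (ENSMUSG00000055022.14, chr15:92051165-92341967, plus strand) stood at 3316, 3241 and 2587 in sham and at 2869, 3172 and 2612 in ON-CR mice. The log2 fold change was -0.08 (SE 0.13), with a 95% interval of -0.36 to 0.21. Contactin is also made by glial precursors, so Cntn1 is not a measure of axons alone. Cntnap1 (ENSMUSG00000017167.6, chr11:101170523-101190724, plus strand) was low, at 67.9, 95.6 and 50.7 in sham and 52.8, 81.8 and 55.0 in ON-CR mice, or 53 to 108 estimated reads. Its groups overlapped, and the 95% interval of its log2 fold change, -0.84 to 0.53, is wide on both sides of 0. Exons of Cntnap1 overlap those of Plekhh3 on the other strand, and because the library kit does not keep the strand, reads from the shared bases cannot be assigned to either gene with certainty.

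Genes that support the paranode from the glial side and beneath the axonal membrane were counted as well. Of 11, 1 rose, 2 fell and 8 did not pass the test (1 higher and 5 lower at an unadjusted p under 0.05), and the median log2 fold change was -0.06. Ugt8a, the enzyme that makes galactosylceramide, a lipid that myelin and paranodes need, fell from 9580.3, 11214 and 7899.6 to 5091, 3236 and 3509.6. Its log2 fold change was -1.29 (SE 0.18), with an adjusted p by limma of 0.00733. Epb41l3, which codes for the scaffold protein that anchors the contactin and Caspr complex on the axonal side, fell from 5702, 6356 and 5185 to 3962, 3086 and 3423. Its log2 fold change was -0.72 (SE 0.13), with an adjusted p by limma of 0.021. Cd9, a tetraspanin of paranodal glial membranes that many cell types express, rose from 7003, 5320.0 and 5244 to 10769, 8644 and 12143. Its log2 fold change was 0.84 (SE 0.16), with an adjusted p by limma of 0.0257. Leaving out 1 mouse ended the call for Ugt8a without sham mouse 2 or ON-CR mouse 6 (highest adjusted p by limma 0.0968), for Epb41l3 without sham mouse 1 or 2 or ON-CR mouse 6 (0.144) and for Cd9 without sham mouse 2 or 3 or ON-CR mouse 4 or 6 (0.180). Gal3st1, the enzyme of the next step, which turns galactosylceramide into sulfatide, stood at 412, 436 and 327 in sham and 281, 168 and 228 in ON-CR mice, with an adjusted p by limma of 0.0827.

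At the juxtaparanode, Cntn2 codes for the adhesion molecule TAG-1, which oligodendrocytes and axons present to each other next to the potassium channels. The gene (ENSMUSG00000053024.14) lies on the minus strand at chr1:132509427-132543256. Its value was 4481, 5014 and 4125 in sham and 3328, 2229 and 2833 in ON-CR mice. All ON-CR mice were below all sham mice, with ON-CR mouse 5 the lowest. The means were 4540.15 ± 447 and 2796 ± 550.4 (SD, n = 3), so the ON-CR mean was 61.6% of the sham mean, and the log2 fold change was -0.71 (SE 0.15). Under 14 other settings it ranged from -0.85 to -0.56.

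Kcna1 and Kcna2 code for the potassium channel subunits that gather at the juxtaparanode. Kcna1 (ENSMUSG00000047976.4, chr6:126640397-126646384, minus strand) stood at 1645, 2494 and 2419 in sham and at 2479, 1800.0 and 2319 in ON-CR mice. The low values were those of sham mouse 1 and ON-CR mouse 5, and the log2 fold change of 0.02 (SE 0.18) had a 95% interval of -0.38 to 0.42. Kcna2 (ENSMUSG00000040724.5, chr3:107101146-107115005, plus strand) stood at 549.7, 846 and 621 in sham and at 764, 591 and 458 in ON-CR mice. The groups overlapped, with a log2 fold change of -0.16 (SE 0.21) and a 95% interval of -0.63 to 0.31. Of 16 other juxtaparanode genes, 0 rose and 0 fell by limma (1 and 1 at an unadjusted p under 0.05), and the median log2 fold change was 0.03, and leaving out ON-CR mouse 5 made it -0.17. Kcnab2, a beta subunit of these channels, was nearest to the threshold. It stood at 143, 104 and 81.7 in sham and 186, 386 and 237 in ON-CR mice, without overlap, with a log2 fold change of 1.26 (SE 0.29) and an adjusted p by limma of 0.0605, and it passed in 4 of 14 other settings. Its highest value was in ON-CR mouse 5, and leaving that mouse out gave 0.97 (SE 0.26), with an adjusted p by limma of 0.0791. Among 7 relatives of the contactins and Caspr, 0 rose and 0 fell by limma (0 and 0 at an unadjusted p under 0.05), their median log2 fold change was 0.53 (leaving out ON-CR mouse 5, 0.25), and 5 of them (Cntn4, Cntn5, Cntnap3, Cntnap4 and Cntnap5a) were highest in ON-CR mouse 5.

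The level of each gene was also set beside the myelin genes of the same library, as log2(value + 1) minus the mean log2(value + 1) of the 12 mature oligodendrocyte markers. That mean was 15.11 ± 0.18 in sham and 14.30 ± 0.20 in ON-CR mice (SD, n = 3), a difference of -0.81. A gene with equal values in both groups is therefore higher after ON-CR on this scale. Hapln2 was lower relative to this mean too, at -5.92, -4.69 and -5.37 in sham and -7.21, -7.56 and -8.0 in ON-CR mice, a difference of -2.26. Cntn2 stood at -3.02, -2.98 and -2.90 in sham and -2.78, -2.97 and -2.85 in ON-CR mice. These groups overlapped, with a difference of 0.10, so that Cntn2 kept about the same distance to the oligodendrocyte markers in all 6 mice. Cntnap1 overlapped as well, at a difference of 0.66, and 7 genes were higher relative to the markers in every ON-CR mouse than in any sham mouse, from 0.65 for Kcna2 to 1.35 for Scn8a and 3.85 for Gldn. The share of all genes that separated on this scale was not computed, so nothing is read from this count. Scn8a stood at -7.18, -7.35 and -7.15 in sham and -6.21, -5.16 and -6.26 in ON-CR mice, highest in ON-CR mouse 5. With the median of the markers in place of the mean, Cntn2 came to -0.06 and Kcna2 also overlapped.

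**Figure D3:**
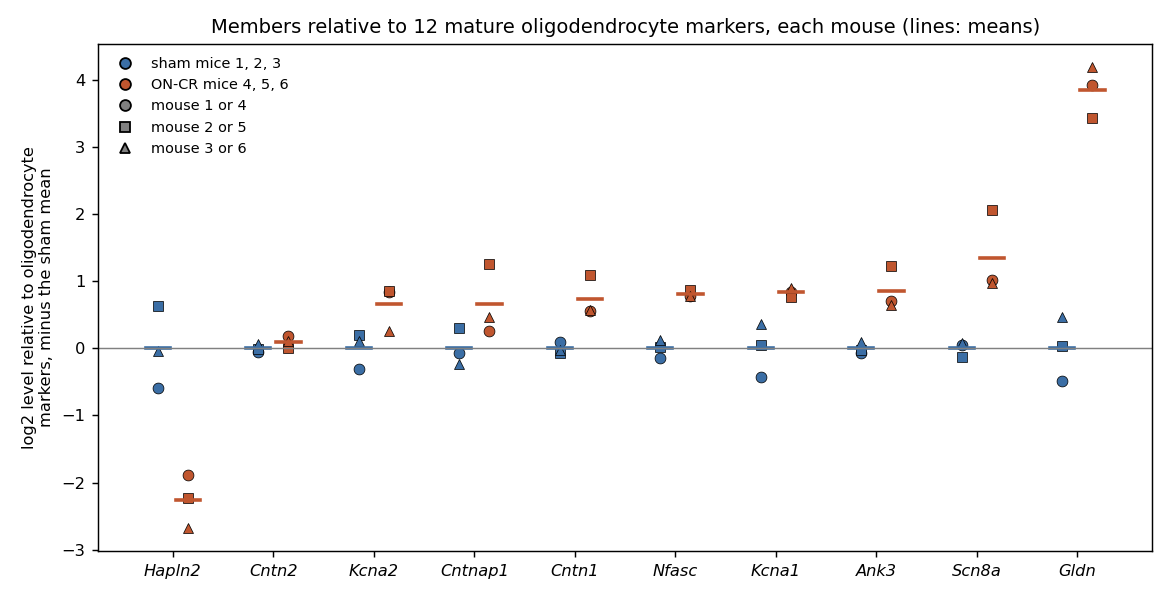
Level of each of the 10 genes relative to the mean of 12 mature oligodendrocyte markers of the same library, in log2 units and shifted so that the sham mean is 0, for 3 sham mice (blue) and 3 ON-CR mice (orange), with lines at the group means. Hapln2 lies below the line in all ON-CR mice at a mean of -2.26, Cntn2 stays at 0.10, and Gldn lies highest at 3.85.

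Levels of different genes were compared per kilobase of annotated exon. In sham mice the order of the means was Cntn2 at 488 ± 48.1, Kcna1 at 457 ± 98.4, Hapln2 at 403 ± 210.3, Cntn1 at 323 ± 42.5 and Nfasc at 273 ± 29.7 per kilobase (SD, n = 3). Below them came Ank3 at 68.7 ± 5.88, Kcna2 at 56.4 ± 12.97, Scn8a at 14.9 ± 1.1, Cntnap1 at 12.2 ± 3.86 and Gldn at 1.69 ± 0.48. Neighbours in this order were separated in every mouse only between Nfasc and Ank3, between Kcna2 and Scn8a and between Cntnap1 and Gldn. In ON-CR mice Kcna1 came first at 460.07 ± 74.2, above all mice of Cntn1 at 306, and Cntn2 at 301 and Nfasc at 271 followed. Hapln2 had moved from the place after Kcna1 to that between Kcna2 and Scn8a, at 45.5, and Gldn, at 15.7, no longer lay below all mice of Cntnap1, at 10.8. The order of levels depends on the length used. With the longest annotated transcript Cntn1 came before Hapln2 in sham mice and Ank3, whose many isoforms add exons, came to 240.1 in place of 68.7.

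**Figure D4:**
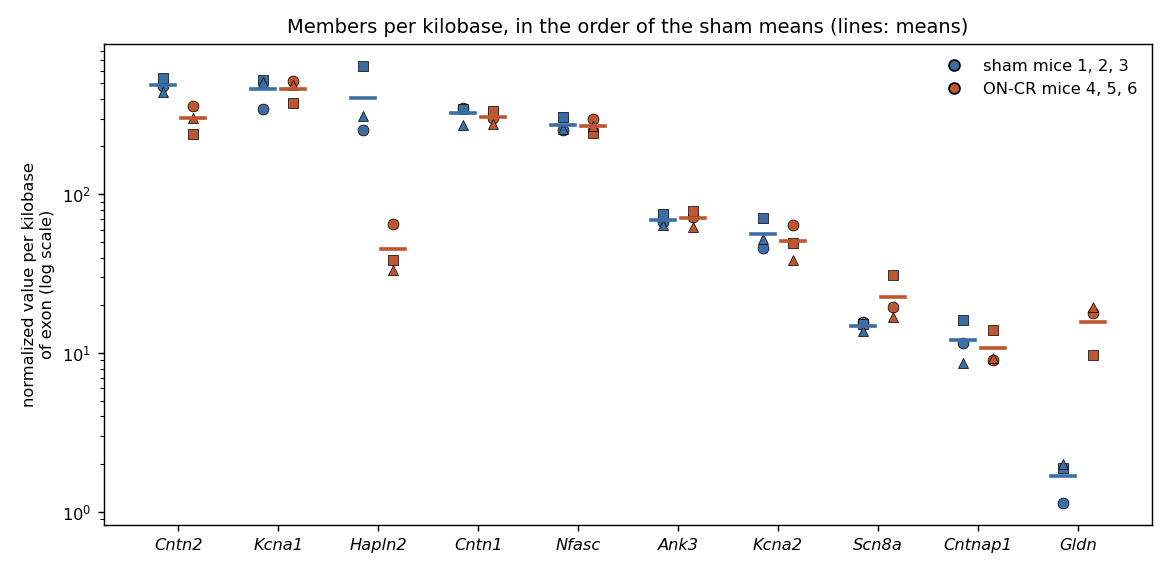
Normalized value per kilobase of exon, on a log axis, for the 10 genes in the order of their sham means, in 3 sham mice (blue) and 3 ON-CR mice (orange), with lines at the group means. Hapln2 drops from a mean of 403 to 45.5, Gldn rises from 1.69 to 15.7, and Kcna1, Cntn1, Nfasc and Ank3 keep nearly the same means.

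The 10 genes lie on 7 chromosomes, and Cntn2 and Nfasc are next to each other, 21434 bases apart on the same strand of chromosome 1. Cntn2 was lower after ON-CR while Nfasc was not, with log2 fold changes of -0.71 and -0.01. On the other side of Cntn2, at 788 bases, Tmem81 had a log2 fold change of -0.93 (SE 0.23) and an adjusted p by limma of 0.0715. Of the genes next to Gldn, Dmxl2 at 23372 bases had a log2 fold change of 0.47 (SE 0.16, adjusted p by limma 0.175) and Tnfaip8l3 at 218098 bases one of -1.0 (SE 0.28, adjusted p by limma 0.105), so neither showed the rise of Gldn. Gpatch4, at 15525 bases from Hapln2 on the side away from Bcan, had a log2 fold change of 0.18 (SE 0.16, adjusted p by limma 0.651). Slc4a8, the bicarbonate transporter gene next to Scn8a, rose by 0.92 (SE 0.15) on the log2 scale, with an adjusted p by limma of 0.0128.

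How the genes varied from mouse to mouse within groups was described by the correlation of their deviations from the group means over the 6 libraries, which share depth and composition. Among 45 pairs the median was 0.36, 19 pairs were above 0.5 and 7 below -0.5. The same shares among other gene pairs were not computed, so nothing is read from these counts. At the upper extreme of the 45, Hapln2 went with Kcna2 (0.95) and with Nfasc (0.89), Cntn2 with Nfasc (0.89) and Gldn with Kcna1 (0.92). At the lower extreme, Gldn and Scn8a went in opposite ways (-0.88), with ON-CR mouse 5 lowest in Gldn and highest in Scn8a. Over all 6 libraries, groups included, Hapln2 and Cntn2 had a Pearson correlation of 0.93. Among 14435 genes with a mean value of at least 50, those most like Hapln2 over the 6 libraries were Sh3gl1 (0.998), Pradc1 (0.996), Sccpdh (0.995), Srebf2 (0.995) and Lrrn1 (0.995). Their falls were smaller than that of Hapln2, with log2 fold changes from -0.34 for Sh3gl1 to -1.20 for Pradc1. For Nfasc, the gene with the highest mean value of the 10, they were Fmnl2 (0.98), Rac1 (0.979), Fam20c (0.978), Ptpn23 (0.978) and Fam222a (0.972). Both sets were picked as the highest of 14435 genes over only 6 libraries, and for Hapln2 the group difference enters as well. Values near 1 are therefore a description only.

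**Figure D5:**
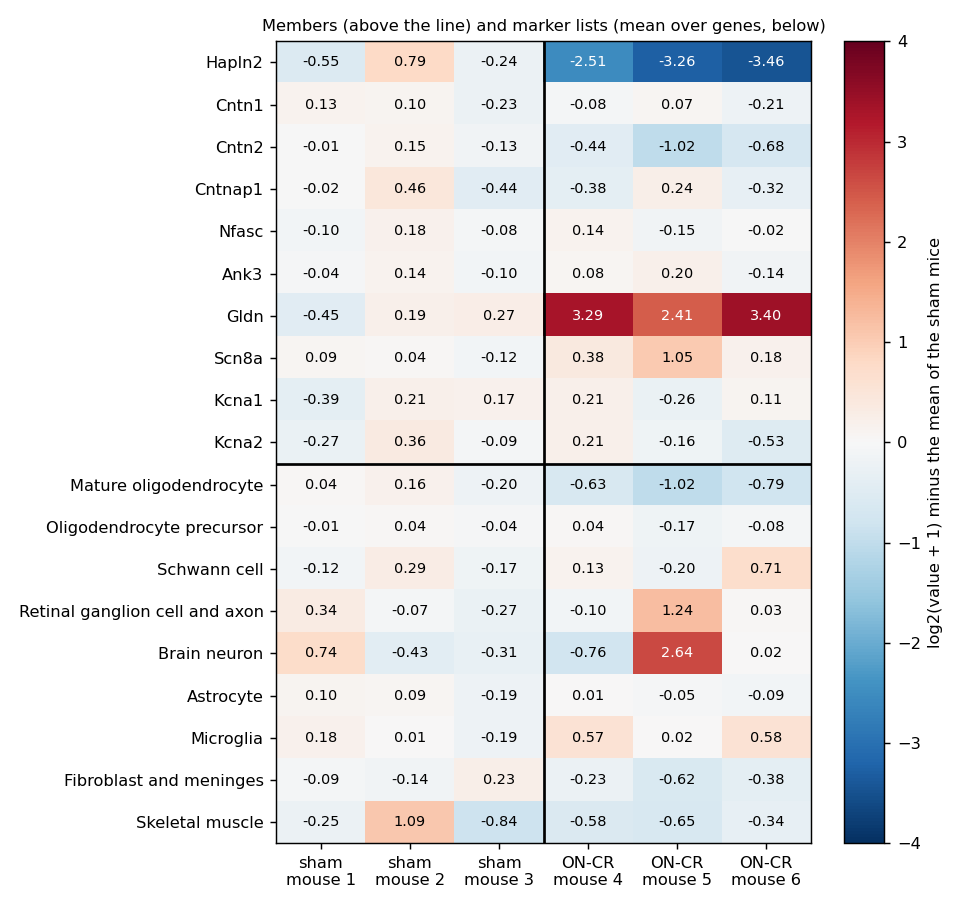
Difference of log2(value + 1) from the sham mean, by mouse, for the 10 genes (above the line) and, as means over their genes, for 9 marker lists (below), in blue where lower and red where higher. ON-CR mouse 5 stands out in the brain neuron list at 2.64 and in the list for retinal ganglion cells and axons at 1.24, and the mature oligodendrocyte list lies between -1.02 and -0.63 in ON-CR mice.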

How the data were processed

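RNA of optic nerves of one genotype, in 6 libraries, 3 sham and 3 ON-CR, was sequenced in bulk with a kit that does not keep the strand. Groups were taken from the sample labels, each library is labelled as a separate mouse, and none of the 6 came from the study's brain injury model. The authors used DRAGEN for alignment and quantification against Ensembl gene models of mm10, applied median normalization in Partek Flow 10.0 and tested with DESeq2. The deposited values are a normalized signal, estimated counts that share one scaling factor within each library, and not raw counts, so no count model was run here. The value of 1 read was taken from the most frequent low values, and 69.7% to 71.7% of values were whole reads afterwards, within 0.05. Depth was 17414035 to 23621086 estimated reads, and the floor of 3 reads covers counting error only.

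Values were fitted as log2(value + 1) with limma 3.58.1 (R 4.3.3), with a mean-variance trend, over all 25755 genes (an average under 1 removed 0), and p-values were adjusted by Benjamini-Hochberg at 0.05. Genes are GENCODE M21 models of GRCm38, the assembly of mm10, and lengths are the union of their exons. Tables were made in Python 3.11.15. The 10 genes, the lists and the cell type markers were chosen with earlier results of these data known. All 10 were named, with the called genes of each list (up to 6), the defining genes of a list and the 5 genes most like Hapln2 and like the gene with the highest mean. The nearest genes on each side, and genes near the threshold or highest in ON-CR mouse 5, were named after their values were seen. Alternatives were pseudocounts of 2 and 0.5, a value of at least 10 in at least 3 libraries, upper-quartile, TMM and library-total scaling, a robust fit, library quality weights and leaving out each mouse. Replicate pairs differed by more than sampling noise (chi-square per degree of freedom 16.5 to 47.4). Some results for genes are left out.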

Additional observations from a re-analysis of the deposited data

How the results depend on the processing

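Leaving out 1 mouse changed the number of genes called over the whole table (540) to between 67 and 854, the first without ON-CR mouse 6, the second without mouse 5 of that group, with 123, 192 and 258 without sham mouse 2, 1 and 3. Among the 10 genes the number called (3) ranged from 1 (without ON-CR mouse 6, Hapln2 alone) to 3, and among the 51 other node, link, paranode and juxtaparanode genes (4) from 1 (without sham mouse 2 or ON-CR mouse 6) to 4. The cause was not tested. Over the other settings the table gave 521 to 791 calls, the 10 genes 2 or 3 and the 51 genes 4 to 6. Scaling by library totals moved the median log2 fold change of all genes by 0.12 and gave 421 higher and 195 lower genes in place of 250 and 290. Among the refits of 9 other domain genes, 112 kept their side of the threshold, 9 lost it and 5 gained it. No paired analysis was possible because mice carry different numbers in the groups. With 3 mice a group, an exact two-sided permutation test of a single gene cannot go below p = 0.1, and Gldn and Cntnap1 rest on few reads.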

Other observations

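The lists of other cell types each held few genes that passed the test. Among 6 markers of oligodendrocyte precursors, 1 rose and 1 fell by limma (1 and 3 at an unadjusted p under 0.05). Lhfpl3 rose from 1032, 1003 and 1035 to 1636, 1334 and 1737 (log2 fold change 0.61 (SE 0.13), adjusted p by limma 0.0393), and Bcas1, which marks cells that are starting to myelinate, fell from 14494, 15202 and 11362 to 8525, 6652 and 7389.9 (log2 fold change -0.86 (SE 0.14), adjusted p by limma 0.0157). Among 8 astrocyte markers, 0 rose and 1 fell by limma (3 and 2 at an unadjusted p under 0.05). Gfap, the filament protein of reactive astrocytes, had a log2 fold change of 0.64 (SE 0.17) (adjusted p by limma 0.0859), Aqp4 one of 0.43 (SE 0.14) (adjusted p by limma 0.175) and Slc1a3 one of 0.31 (SE 0.13) (adjusted p by limma 0.269), each higher in every ON-CR mouse than in any sham mouse. The marker that fell was S100b, with a log2 fold change of -0.75 (SE 0.13) and an adjusted p by limma of 0.0185. Aldoc was also lower in every ON-CR mouse, with a log2 fold change of -0.62 (SE 0.17) (adjusted p by limma 0.095). Of the 8 astrocyte markers, 4 had a log2 fold change above 0 and 4 below, with a median of -0.03. Among 6 microglial markers, 1 rose and 0 fell by limma (3 and 0 at an unadjusted p under 0.05, and 3 called without ON-CR mouse 5), namely Aif1, which codes for Iba1, from 635, 486 and 514 to 1434, 842 and 1653, with an adjusted p by limma of 0.026. Of the 6, 4 had a log2 fold change above 0 and 2 below. The 2 below were P2ry12 at -0.35 (SE 0.17, adjusted p by limma 0.364) and Tmem119 at -0.27 (SE 0.13, adjusted p by limma 0.351). Tmem119 was lower in every ON-CR mouse than in any sham mouse. At this age and genotype, the paper reports more Tmem119-positive cells by in situ hybridization and more Iba1-positive cells by staining after ON-CR. Those are counts of cells, a different measure from the bulk RNA levels here. Among 5 fibroblast and meninges markers, 0 rose and 0 fell by limma (0 and 3 at an unadjusted p under 0.05), and among 6 skeletal muscle markers, 0 rose and 0 fell (0 and 0). Cdk1, the cell cycle kinase gene next to Ank3, rose by 1.60 (SE 0.31) on the log2 scale, with an adjusted p by limma of 0.0288, while Ank3 had a log2 fold change of 0.05.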
